A study of Homo sapiens with 6 samples.

Results

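The 10 genes described here, CDKN1A, RB1, RBL1, RBL2, LATS2, E2F1, CCND1, CCND2, CDK2 and CDK6, regulate the step from the G1 phase of the cell cycle into DNA synthesis. They were chosen by symbol from a list of such regulators described as targets of embryonic stem cell microRNAs. Whether each gene is such a target was not checked here. All 10 had a row in the deposited count table, among 16199 rows in all. MicroRNA levels were not analysed here, so control by microRNAs enters only through the choice of genes.

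The libraries came from H1, a human embryonic stem cell line in long use, with 3 genotypes of DICER1 made by CRISPR-Cas9. The first is homozygous for the Dicer substitution S1344L, the second is hemizygous for it, and the third is wild-type. The protocol writes the first as pm/pm and the second as pm/fs, without spelling the letters out. Each genotype had 2 libraries, numbered 1 and 2, each from 2 dishes of 15 cm. Cells of all 3 genotypes had been kept without doxycycline for 10 days, and the labels do not say what doxycycline controls in them. The labels give neither the number of clones behind a genotype nor whether its libraries came from separate cultures. The p-values therefore speak only of the spread among the 6 libraries, and that spread may be technical. Cells were exposed 2 times to ultraviolet light of 254 nm (150 mJ/cm2) and Ago2 was pulled down with an antibody. This is iCLIP, which crosslinks a protein to RNA and sequences the RNA that stays bound. Ago2 is the Argonaute protein that carries a microRNA to its target, so a count may follow both the amount of a transcript and its binding by Ago2. The table cannot tell these apart, and neither can it tell fewer cells of a kind from less RNA per cell.

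In G1, D-type cyclins with CDK4 or CDK6, and later cyclin E with CDK2, phosphorylate the proteins of the retinoblastoma family. Those proteins hold E2F factors in check, and their phosphorylation frees E2F to switch on genes of DNA synthesis. Inhibitors such as p21, the product of CDKN1A, block the kinases. Embryonic stem cells are known for a short G1 phase, and mouse stem cells that lack microRNAs accumulate in G1. Dicer cuts microRNA precursors with 2 RNase III domains, of which one cuts the 5p arm and the other the 3p arm. S1344L lies in the RNase IIIa domain and, like cancer hotspot changes of the RNase IIIb domain, is known to lower microRNAs of the 5p arm.

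The microRNAs behind the choice of genes are shown because the guides fall on different arms of their precursors while some share most of their seed. Sequences are those of RefSeq, build GRCh38.p14, written 5′ to 3′ with the seed, bases 2 to 8, in capitals.
miR-302a-3p: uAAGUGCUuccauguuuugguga
miR-372-3p: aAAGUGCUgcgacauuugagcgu
miR-373-3p: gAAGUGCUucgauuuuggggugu
miR-17-5p: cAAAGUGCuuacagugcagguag
miR-20a-5p: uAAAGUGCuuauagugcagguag
miR-106b-5p: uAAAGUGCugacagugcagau
miR-16-5p: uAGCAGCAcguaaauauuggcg
miR-34a-5p: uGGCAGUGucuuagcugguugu
let-7g-5p: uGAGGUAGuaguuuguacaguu
The 3 microRNAs of the 3p arm shared 1 seed, and miR-17-5p, miR-20a-5p and miR-106b-5p shared another. Both of these seeds hold the run AAGUGC, which begins at base 2 in the 3p guides and at base 3 in the 5p guides. The other 3 have seeds of their own.

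The arms are shown on a pair of precursor hairpins, with the guide in capitals. MIR302A lies at chr4:112648183-112648251 on the minus strand, and MIR17 lies at chr13:91350605-91350688 on the plus strand.
MIR302A: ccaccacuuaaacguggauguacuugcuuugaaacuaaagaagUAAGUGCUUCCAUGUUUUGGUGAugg
MIR17: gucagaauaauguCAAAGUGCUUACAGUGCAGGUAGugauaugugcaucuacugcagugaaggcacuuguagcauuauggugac
The guide of MIR302A spans bases 44 to 66 of 69, on the 3p side, and the guide of MIR17 spans bases 14 to 36 of 84, on the 5p side. Background work assigns several of the 10 genes to these families. In mouse stem cells Cdkn1a, Rbl2 and Lats2 are known targets of the AAGUGC family. In human cells LATS2 is a known target of miR-372 and miR-373, CCND1 of miR-302 and miR-16, and E2F1 of miR-17 and miR-20a. Human CDKN1A is a known target of miR-106b, and CDK6 is one of let-7 and miR-34a.

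Library totals ran from 38164848 to 52924532 counts, and levels are given as CPM, the usual count relative to library size, after TMM scaling. The lowest count of any of the 10 genes in a library was 545, of RBL1, where counting error alone is 4.28%. All 12 listed markers of pluripotent cells had rows, with SOX2 at 341 to 419 CPM and NANOG at 143 to 198 CPM over the libraries. Of the other cell types looked for, 10 of 15 fibroblast and stromal, 5 of 10 neuroectoderm, 2 of 10 trophoblast and amnion and 1 of 10 mesendoderm genes had rows. DICER1 stood at 129 and 118 CPM in homozygous, 118 and 96.4 CPM in hemizygous and 169 and 126 CPM in wild-type libraries, which does not check the substitution itself. AGO2 was at 268 and 199 CPM in homozygous, 277 and 231 CPM in hemizygous and 218 and 222 CPM in wild-type libraries. The libraries grouped by number more than by genotype. On the first principal component, which held 59.1% of the variance of log2 CPM, replicate 1 stood at -39.80 in hemizygous and -34.48 in wild-type cells. The 3 replicate 2 libraries stood between 20.58 and 28.52. Homozygous replicate 1 stood apart from the other replicate 1 libraries, at 3.15. Values are therefore given for every library, and differences also between libraries of the same number.

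Across the 3 comparisons of genotypes, none of the 10 genes passed the test. The quasi-likelihood test of edgeR, with Benjamini-Hochberg adjustment over all 16199 genes and a threshold of 0.05, called 0 of the 10 in homozygous against wild-type, hemizygous against wild-type and homozygous against hemizygous cells. It also called 0.0% of all genes in each comparison. At an unadjusted p under 0.05 the count was 0 of 10 in each, where all genes gave 2.69%, 0.87% and 0.765%. With the replicate number as a block those shares of all genes were 12.0%, 3.8% and 8.2%, and the count was 1 of 10 in hemizygous against wild-type cells, CDK6 at an unadjusted p of 0.0116 (adjusted p = 0.999 by edgeR), and 0 of 10 in the others. In edgeR with upper-quartile or library-size scaling, CDK6 in that comparison had an unadjusted p of 0.0402 and 0.0465 (adjusted p = 1.00). CDKN1A in homozygous against wild-type cells had an unadjusted p of 0.0195 by DESeq2 (adjusted p = 1.00) and of 0.0313 in an edgeR fit of those groups alone (adjusted p = 0.999). DESeq2 and limma-voom called 0 of the 10 as well. Fits with a library left out are not among the settings listed here, and their effect sizes are given further below. Of the 10 genes 7 lay above 0 and 3 below in homozygous against wild-type cells, with a median log2 fold change of 0.04 beside -0.0034 over all genes. In hemizygous against wild-type cells 5 lay above and 5 below, with a median of 0.0078 beside -0.0026 over all genes. The 2 mutant genotypes share the wild-type libraries, so these comparisons are not independent. The median size of the log2 fold change, without its sign, was 0.13 in homozygous and 0.11 in hemizygous against wild-type cells, and over all genes it was 0.14 and 0.09. A missed threshold does not show equal levels, so the 95% interval of each fold change is given below. These intervals and SEs come from the fit without the replicate block, which leaves the pairing by number out. With the block the SEs of CCND2 and RB1 in hemizygous against wild-type cells were smaller, as given further below. Without it the half-widths of the intervals in homozygous against wild-type cells ran from 0.32, for CDK2, to 1.09, for CDKN1A, on the log2 scale.

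**Figure D1:**
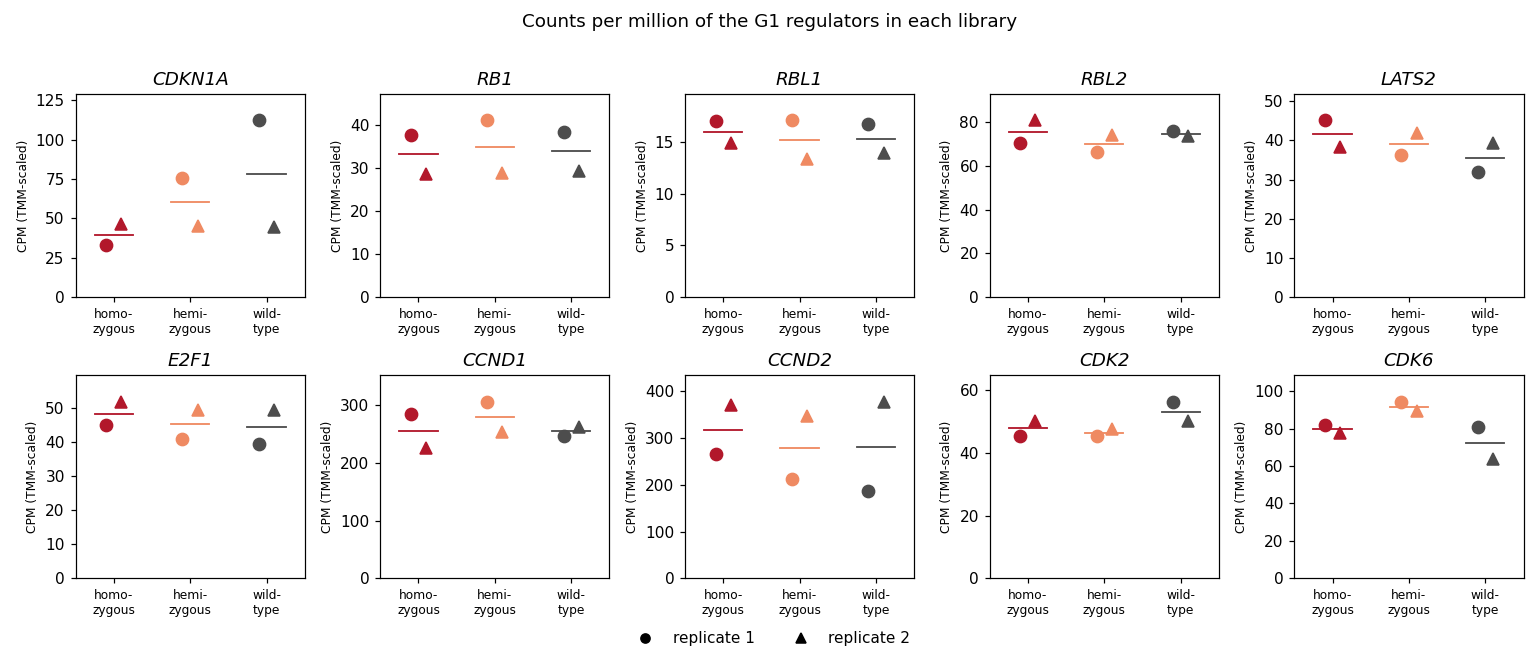
Each panel plots 1 gene, with CPM (TMM-scaled counts relative to library size, axis from 0) in the homozygous, hemizygous and wild-type libraries; circles are replicate 1, triangles replicate 2 and lines the mean of both. CDKN1A runs from 32.8 to 112 CPM and differs mainly among the circles, while CCND2 and RB1 separate circles from triangles in all 3 genotypes.

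CDKN1A encodes p21, which blocks cyclin-CDK complexes and is a classical target of p53. The gene lies at chr6:36676463-36687332 (RefSeq, GRCh38). It stood at 32.8 and 46.2 CPM in homozygous libraries 1 and 2, at 75.7 and 45.0 CPM in hemizygous libraries and at 112 and 44.6 CPM in wild-type libraries. The replicate 2 libraries lay within 44.6 to 46.2 CPM in all 3 genotypes, and the replicate 1 libraries differed 3.41-fold between wild-type and homozygous. The groups overlapped in every comparison. No other of the 10 genes had a wider range over the libraries. In homozygous against wild-type cells the log2 fold change was -0.99 (SE 0.45, 95% interval -2.07 to 0.10, adjusted p = 1.00 by edgeR). The difference was -1.77 on the log2 scale between the replicate 1 libraries and 0.05 between the replicate 2 libraries. Without wild-type replicate 1 the log2 fold change was -0.17, and without wild-type replicate 2 it was -1.49 (adjusted p = 0.837). In hemizygous against wild-type cells it was -0.38 (SE 0.45, interval -1.45 to 0.70), with -0.57 between the replicate 1 and 0.01 between the replicate 2 libraries. That value turned to 0.44 when wild-type replicate 1 was left out. Against hemizygous cells, homozygous cells were at -0.61 (SE 0.45, interval -1.69 to 0.47), with -0.18 when hemizygous replicate 1 was left out and -0.94 when hemizygous replicate 2 was.

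Some other genes varied along with CDKN1A across the libraries, and others did so only in part. Summed over the 19 measured of 20 listed p53 target genes, CDKN1A included, levels were 1680 and 1786 CPM in homozygous, 2003 and 1743 CPM in hemizygous and 2121 and 1624 CPM in wild-type libraries. In each genotype this sum was higher in the library where CDKN1A was higher. The genes on the list did not all move together. In replicate 1 against replicate 2, 13 of the 19 log2 fold changes lay above 0 and 6 below, BBC3 at -0.28 and FDXR at -0.26 among the latter. GDF15, a secreted stress factor on that list, stood at 5.02 and 10.2 CPM in homozygous, 18.4 and 8.54 CPM in hemizygous and 25.1 and 9.44 CPM in wild-type libraries. FAS, a death receptor on the same list, was at 6.17 and 5.27 CPM in homozygous, 13.1 and 6.38 CPM in hemizygous and 11.9 and 4.63 CPM in wild-type libraries. GDF15 was lower in replicate 1 than in replicate 2 in homozygous cells and higher in the other genotypes, as CDKN1A was, while FAS was higher in replicate 1 in all 3. The 10 measured fibroblast and stromal genes also differed between libraries. Their sum was 1437 and 1383 CPM in homozygous, 1801 and 1463 CPM in hemizygous and 1683 and 1476 CPM in wild-type libraries. In homozygous against wild-type cells 9 of these 10 lay below 0 and FN1 lay above it, at 0.20. The median log2 fold change of the 10 was -0.42, beside -0.0034 over all genes. This list too was chosen with earlier results of these data known, so these values are a description only. In replicate 1 against replicate 2, 8 lay above 0 and 2 below, COL5A1 at -0.33 and THY1 at -0.19. FN1 and THY1 gave the most CPM to the sum. FBN1, a matrix fibre protein, stood at 7.51 and 7.24 CPM in homozygous, 21.9 and 8.03 CPM in hemizygous and 16.9 and 6.91 CPM in wild-type libraries. The stromal sum and FBN1 were higher in replicate 1 in all 3 genotypes, which CDKN1A was not. The listed stromal genes LUM, DCN, COL3A1, FAP and TWIST2 were not analysed here, and the part of stromal genes in the CDKN1A values was not tested. By Pearson correlation of log2 CPM over the 6 libraries, among 9914 other genes with a mean of at least 10 CPM, the genes most like CDKN1A were PI4KB (r = 0.99), TAGLN2 (r = 0.99) and UBA3 (r = 0.99). TAGLN2, an actin-binding protein, stood at 76.0 and 84.8 CPM in homozygous, 117 and 84.8 CPM in hemizygous and 136 and 85.4 CPM in wild-type libraries. PI4KB ran only from 38.4 to 46.8 CPM, as r does not measure the size of a change. With 6 libraries, and replicate numbers that many genes follow, these correlations are a description only.

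The retinoblastoma family, the brakes that hold E2F factors, showed small differences between genotypes. RB1, the founding member (chr13:48303751-48481890), stood at 37.7 and 28.7 CPM in homozygous, 41.1 and 28.9 CPM in hemizygous and 38.5 and 29.3 CPM in wild-type libraries. Replicate 1 was above replicate 2 in each genotype, and the genotypes overlapped. For RB1 the log2 fold change was -0.03 (SE 0.24, interval -0.60 to 0.54) in homozygous and 0.04 (SE 0.24, interval -0.53 to 0.62) in hemizygous against wild-type cells. LPAR6, a receptor gene, overlaps RB1 in the annotation, and the use of strand in counting is not given in the sources used here. Its counts were 200 to 629 per library, beside 1145 to 1996 for RB1.

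RBL1, which encodes p107 (chr20:36996349-37095997), stood at 17.0 and 15.0 CPM in homozygous, 17.1 and 13.4 CPM in hemizygous and 16.8 and 13.9 CPM in wild-type libraries. RBL2, which encodes p130 (chr16:53434471-53491648), stood at 70.5 and 80.9 CPM in homozygous, 66.4 and 74.2 CPM in hemizygous and 75.9 and 73.8 CPM in wild-type libraries. Neither gene separated the genotypes. For RBL1 the log2 fold change was 0.06 (SE 0.19, interval -0.40 to 0.52) in homozygous and -0.01 (SE 0.19, interval -0.47 to 0.45) in hemizygous against wild-type cells. For RBL2 it was 0.02 (SE 0.14, interval -0.31 to 0.34) in homozygous and -0.09 (SE 0.14, interval -0.42 to 0.24) in hemizygous against wild-type cells. p130 gathers in resting cells with the MuvB complex to form DREAM, which represses cell cycle genes. RBL2 overlaps AKTIP in the annotation, which had 668 to 1188 counts per library beside 2545 to 3934 for RBL2.

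LATS2 encodes a Hippo pathway kinase that inhibits the co-activators YAP and TAZ (chr13:20973036-21061586). It stood at 45.1 and 38.2 CPM in homozygous, 36.3 and 42.0 CPM in hemizygous and 31.9 and 39.2 CPM in wild-type libraries. The highest library was homozygous replicate 1 and the lowest wild-type replicate 1, and the groups overlapped. LATS2 had a log2 fold change of 0.23 (SE 0.17, interval -0.18 to 0.63) in homozygous and 0.14 (SE 0.17, interval -0.27 to 0.54) in hemizygous against wild-type cells. Between homozygous and wild-type cells the log2 difference was 0.50 for the replicate 1 and -0.04 for the replicate 2 libraries. When wild-type replicate 1 was left out the fold change was 0.0925 in homozygous and 0.0021 in hemizygous cells, and when wild-type replicate 2 was left out it was 0.40 and 0.31.

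E2F1, an activating factor of DNA synthesis genes (chr20:33675477-33686385), stood at 44.9 and 51.8 CPM in homozygous, 40.9 and 49.4 CPM in hemizygous and 39.5 and 49.2 CPM in wild-type libraries. In each genotype replicate 1 was the lower, and the genotypes overlapped. E2F1 had a log2 fold change of 0.12 (SE 0.17, interval -0.29 to 0.54) in homozygous and 0.03 (SE 0.17, interval -0.39 to 0.44) in hemizygous against wild-type cells.

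The cyclins D1 and D2, partners of CDK4 and CDK6, had the most counts of the 10 genes, which is not a comparison of transcript levels because lengths were not used. CCND1 (chr11:69641156-69654474) stood at 285 and 226 CPM in homozygous, 306 and 254 CPM in hemizygous and 247 and 262 CPM in wild-type libraries. CCND2 (chr12:4273762-4305353) stood at 265 and 369.8 CPM in homozygous, 211 and 346 CPM in hemizygous and 186 and 377 CPM in wild-type libraries. CCND2 was lower in replicate 1 than in any replicate 2 library, while CCND1 showed no such order. The log2 fold change of CCND1 was 0.0059 (SE 0.17, interval -0.39 to 0.40) in homozygous and 0.14 (SE 0.17, interval -0.26 to 0.53) in hemizygous against wild-type cells. The value of CCND1 in hemizygous cells was 0.0064 when hemizygous replicate 1 was left out and 0.26 when hemizygous replicate 2 was. For CCND2 it was 0.18 (SE 0.38, interval -0.73 to 1.09) in homozygous and -0.01 (SE 0.38, interval -0.92 to 0.90) in hemizygous against wild-type cells. The wide intervals of CCND2 go with the gap between its 2 libraries in every genotype. CCND2-AS1, an antisense gene that overlaps CCND2, had 23 to 45 counts per library beside 8107 to 18247 for CCND2.

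The ratio of CCND2 to CCND1 counts within a library needs no scaling of library size. It compares counts, which also follow transcript length and binding by Ago2, and so does not give the balance of the cyclins themselves. It was 0.93 and 1.63 in homozygous, 0.69 and 1.36 in hemizygous and 0.75 and 1.44 in wild-type libraries. CCND1 had the more counts in every replicate 1 library and CCND2 in every replicate 2 library. Its mean was 1.28 ± 0.50 in homozygous, 1.03 ± 0.47 in hemizygous and 1.09 ± 0.48 in wild-type cells (SD, n = 2 each). Between libraries of the same number, homozygous minus wild-type was 0.179 and 0.198, and hemizygous minus wild-type was -0.0614 and -0.0732. The homozygous library was thus highest and the hemizygous lowest in both pairs, and these differences were not tested.

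CDK6, a kinase partner of D cyclins (chr7:92604921-92836573), had the lowest p of the 10 genes in hemizygous against wild-type cells. It stood at 81.8 and 77.8 CPM in homozygous, 94.2 and 89.1 CPM in hemizygous and 80.8 and 64.0 CPM in wild-type libraries. Both hemizygous libraries lay above both wild-type libraries and above both homozygous libraries. The log2 fold change was 0.34 in hemizygous against wild-type cells (SE 0.15, interval -0.02 to 0.70, unadjusted p = 0.0621, adjusted p = 1.00 by edgeR). It was 0.22 between the replicate 1 and 0.48 between the replicate 2 libraries. With any library left out it stayed between 0.19 and 0.53, the lowest value without wild-type replicate 2. Homozygous cells were at 0.14 against wild-type cells (SE 0.15, interval -0.22 to 0.50), and against hemizygous cells at -0.20 (SE 0.15, interval -0.56 to 0.16). Of 10 listed neuroectoderm markers 5 were measured, and all 5 lay above 0 in hemizygous against wild-type cells. Their median log2 fold change was 0.75, beside -0.0026 over all genes. They were uneven, with NES at 0.02 and MAP2 at 0.24. By edgeR 3 had an unadjusted p under 0.05, where 0.87% of all genes had one, and 0 were called. The list was chosen with earlier results of these data known. Its count and median therefore cannot be weighed against all genes and are a description only. The summed level of the 5 was 429 and 417 CPM in homozygous, 575 and 478 CPM in hemizygous and 504 and 458 CPM in wild-type libraries. Most of this sum was NES, at 386 and 371 CPM in homozygous, 515 and 400 CPM in hemizygous and 472 and 429 CPM in wild-type libraries. ZIC1, a factor of early neural tissue, stood at 28.2 and 28.0 CPM in homozygous, 41.0 and 58.9 CPM in hemizygous and 17.9 and 16.3 CPM in wild-type libraries, at a log2 fold change of 1.54 in hemizygous against wild-type cells (SE 0.20, unadjusted p = 1.31e-04, adjusted p = 0.710 by edgeR). PAX6 and SOX1 were not analysed here, and the part of neural markers in the CDK6 values was not tested. By the same correlation, the genes most like CDK6 over the 6 libraries were EWSR1 (r = 0.98), MAMDC2 (r = 0.98) and KBTBD2 (r = 0.97). This too is a description only, and r does not measure the size of a change. EWSR1 ran only from 398 to 424 CPM, beside 64.0 to 94.2 CPM for CDK6.

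CDK2, the kinase partner of cyclin E (chr12:55966830-55972789), stood at 45.5 and 50.3 CPM in homozygous, 45.4 and 47.5 CPM in hemizygous and 56.3 and 50.0 CPM in wild-type libraries. Both hemizygous libraries lay below both wild-type libraries, and homozygous replicate 2 lay within the wild-type range. CDK2 had a log2 fold change of -0.15 (SE 0.13, interval -0.47 to 0.17) in homozygous and -0.19 (SE 0.13, interval -0.51 to 0.12) in hemizygous against wild-type cells.

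Groups that do not overlap were thus seen for CDK6 and CDK2 in hemizygous against wild-type cells, 2 of the 10 genes, where 17.3% of all genes did not overlap. CDK6 was higher, as were 8.13% of all genes, and CDK2 was lower, as were 9.21%. The count was 0 of 10 in homozygous against wild-type cells, where the share of all genes was 27.9%. It was 1 of 10, CDK6, in homozygous against hemizygous cells, where the share was 21.4% in either direction and 10.4% for lower genes. Between libraries of the same number, the 2 differences had the same sign for 4 of 10 genes in homozygous against wild-type, 4 of 10 in hemizygous against wild-type and 7 of 10 in homozygous against hemizygous cells, where the shares of all genes were 55.7%, 55.3% and 57.5%.

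**Figure D2:**
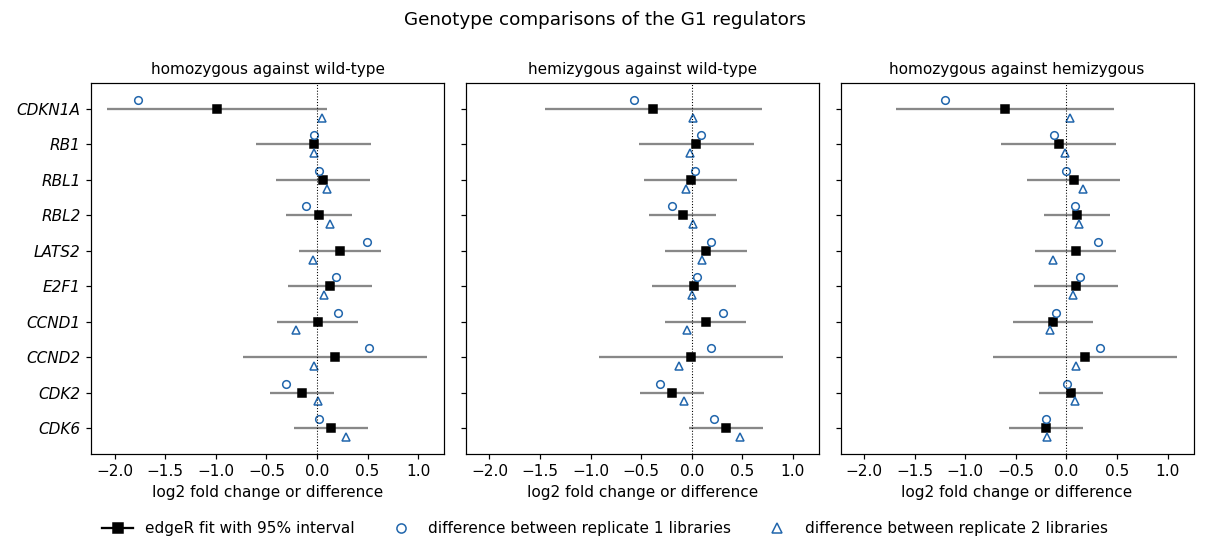
The log2 fold change of each gene is plotted for homozygous against wild-type, hemizygous against wild-type and homozygous against hemizygous cells. Black squares with 95% intervals are from the edgeR fit without the replicate block. Open circles and triangles are the log2 CPM differences between the replicate 1 and between the replicate 2 libraries. All intervals include 0, and the replicate 1 circle of CDKN1A stands at -1.77 in homozygous against wild-type cells while its replicate 2 triangle stands at 0.05.

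Some of these genes did pass the test for replicate number, a label of the libraries whose meaning is not given. In a fit with genotype as a covariate, replicate 1 against replicate 2, 3 of the 10 genes were called by edgeR, where 20.5% of all genes were called, 12.0% higher and 8.5% lower. Read against that share, the count of 3 says nothing particular of the set. CCND2 was lower in replicate 1, with a log2 fold change of -0.74 (SE 0.11, adjusted p = 0.0122), and so was E2F1, with -0.27 (SE 0.07, adjusted p = 0.0459). RB1 was higher, with 0.43 (SE 0.08, adjusted p = 0.0165). Within homozygous, hemizygous and wild-type cells the step of CCND2 was -0.48, -0.71 and -1.02 on the log2 scale. For RB1 it was 0.39, 0.51 and 0.39, and for E2F1 it was -0.21, -0.27 and -0.32. These genes thus kept their direction in 3 of 3 genotypes. RBL1 and CDK6 did so too, without passing the test, with log2 fold changes of 0.27 (SE 0.09, adjusted p = 0.0822) and 0.16 (SE 0.08, adjusted p = 0.199). In all, 3 of 10 genes were higher in replicate 1 in every genotype and 2 were lower, where the shares of all genes were 29.9% and 28.3%. The nearest genes to CCND2 over the 6 libraries were DOK4, DNM1 and REEP2, each with r at or over 0.99, which does not measure the size of a change.

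For the remaining genes the step differed in sign between genotypes. That of CDKN1A was -0.49 in homozygous, 0.75 in hemizygous and 1.33 in wild-type cells, and that of LATS2 was 0.24, -0.21 and -0.30. CCND1 had steps of 0.33, 0.27 and -0.09, RBL2 of -0.20, -0.16 and 0.04, and CDK2 of -0.14, -0.07 and 0.17. The fit over all genotypes gave CDKN1A 0.54 (SE 0.30, adjusted p = 0.219). Fits without one library, added after seeing the data, rest on 2 pairs of libraries in place of 3. Without homozygous replicate 1 or replicate 2 the count was 6 of 10 genes, where 38.7% and 38.6% of all genes were called, with CDKN1A at 1.04 (adjusted p = 3.2e-04), RBL1 at 0.31 (adjusted p = 0.0346 without homozygous replicate 1 and 0.0331 without replicate 2) and LATS2 at -0.25 (0.0327 and 0.0321) beside CCND2, RB1 and E2F1. Without wild-type replicate 1 or replicate 2 it was 1 of 10, CCND2, where 7.04% and 6.65% of all genes were called, with RB1 at an adjusted p of 0.0566 without replicate 1 and 0.0586 without replicate 2, and E2F1 at 0.198 and 0.195. Without hemizygous replicate 1 or replicate 2 it was 0 of 10, where 0.00617% and 0.0185% of all genes were called, with CCND2 at 0.160 without replicate 1 and 0.0785 without replicate 2, RB1 at 0.214 and 0.163, and E2F1 at 0.286 and 0.292.

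**Figure D3:**
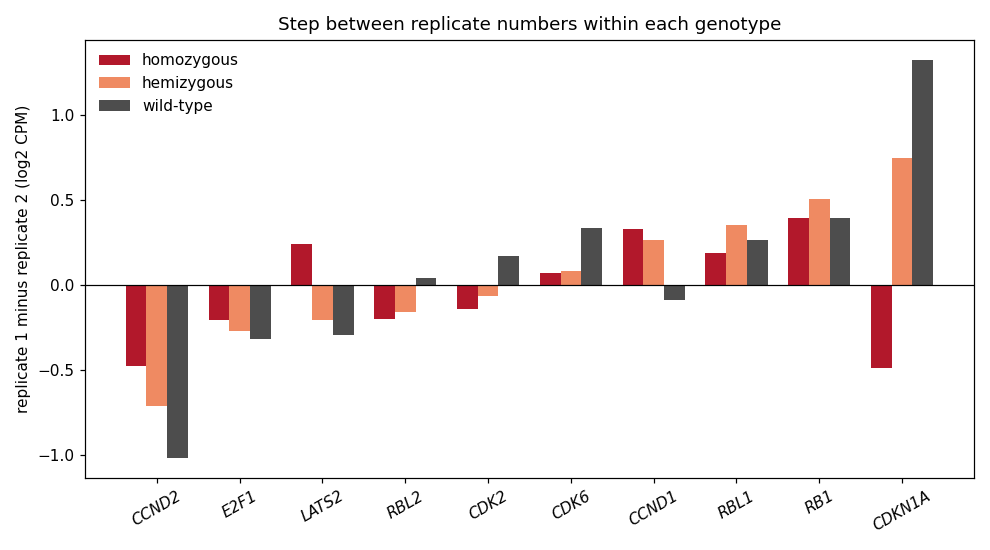
Bars give the log2 CPM of replicate 1 minus that of replicate 2 for each gene, in homozygous, hemizygous and wild-type cells, drawn from 0. CCND2 lies below 0 and RB1 above 0 in all 3 genotypes, while CDKN1A is at -0.49 in homozygous cells and at 1.33 in wild-type cells.

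The rest of the pathway was read from lists of named genes. Of 6 other CDK inhibitors 2 had rows, CDKN1B, which encodes p27, and CDKN2D, which encodes p19. CDKN1B stood at 58.6 and 65.9 CPM in homozygous, 57.9 and 65.8 CPM in hemizygous and 60.8 and 57.3 CPM in wild-type libraries. Its log2 fold change was 0.08 (SE 0.14) in homozygous and 0.07 (SE 0.14) in hemizygous against wild-type cells. Among 11 measured of 12 other G1/S cyclins, kinases and activators, 0 were called in any comparison of genotypes. CCNA1, a cyclin best known from germ cells, had the lowest p, with log2 fold changes of 0.56 (SE 0.22, unadjusted p = 0.0383) in homozygous and 0.43 (SE 0.22, unadjusted p = 0.0908) in hemizygous against wild-type cells. It stood at 16.3 and 17.3 CPM in homozygous, 13.1 and 17.6 CPM in hemizygous and 13.0 and 9.80 CPM in wild-type libraries. CCNE2, a partner of CDK2, had log2 fold changes of 0.23 (SE 0.27) in homozygous and 0.48 (SE 0.27) in hemizygous against wild-type cells. By replicate number CCNA2, which encodes cyclin A2, was higher in replicate 1 by 0.31 (SE 0.07, adjusted p = 0.0273 by edgeR) and SKP2, which marks p27 for destruction, by 0.30 (SE 0.07, adjusted p = 0.0300).

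Of the other E2F and DP factors 8 of 9 were measured and 0 were called between genotypes. Below 0 in homozygous against wild-type cells lay 7, with a median log2 fold change of -0.15 beside -0.0034 over all genes. E2F8, a repressing member of the family, was at 12.3 and 13.5 CPM in homozygous, 17.3 and 15.1 CPM in hemizygous and 20.3 and 17.1 CPM in wild-type libraries. Its log2 fold change in homozygous against wild-type cells was -0.53 (SE 0.17, unadjusted p = 0.0168, adjusted p = 1.00 by edgeR). Both homozygous libraries lay below both wild-type libraries, as they did for 13.6% of all genes. TFDP1, the DNA-binding partner of E2F factors, had -0.41 (SE 0.23) in the same comparison. TFDP1 and E2F7, another repressing member, were higher in replicate 1 than in replicate 2, by 0.38 (SE 0.10, adjusted p = 0.0369 by edgeR) and 0.47 (SE 0.09, adjusted p = 0.0179). All 6 MuvB and DREAM partners were measured and 0 were called between genotypes. LIN54, the subunit that binds DNA, was higher in replicate 1 by 0.35 (SE 0.08, adjusted p = 0.0303). LIN37, a MuvB subunit near 1 CPM, had 0.89 (SE 0.29, unadjusted p = 0.0196) in homozygous against hemizygous cells.

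All 22 listed targets of E2F were measured, E2F1 and RBL1 among them, and 0 were called between genotypes. Of these, 7 lay above and 15 below 0 in homozygous against wild-type cells, with a median log2 fold change of -0.11. In hemizygous against wild-type cells 10 lay above and 12 below, with a median of -0.0034. TYMS, the thymidylate synthase, had -0.25 (SE 0.17) and TK1, a thymidine kinase, had -0.22 (SE 0.12) in homozygous against wild-type cells. By replicate number 7 of 22 were called higher in replicate 1, where 12.0% of all genes were, and 1, E2F1 itself, was called lower, where 8.5% were. The list was not tested as a set, so these counts are not read as a result about E2F targets. RRM2, a subunit of ribonucleotide reductase, was higher by 0.55 (SE 0.08, adjusted p = 0.0126) and CDC6, which loads the replicative helicase, by 0.45 (SE 0.09, adjusted p = 0.0207). The other 5 called higher were MCM2, MCM4 and MCM6 of the replicative helicase, POLA1, a DNA polymerase subunit, and UHRF1, a maintenance factor of DNA methylation.

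Of 18 other Hippo pathway genes all were measured and 0 were called between genotypes. CCN2, a secreted target of YAP, stood at 25.8 and 23.3 CPM in homozygous, 55.5 and 21.1 CPM in hemizygous and 64.3 and 22.0 CPM in wild-type libraries. Its log2 fold change was -0.82 (SE 0.58) in homozygous against wild-type cells, and the gap lay between the replicate 1 libraries. By replicate number 4 of the 18 were called, all higher in replicate 1. Of all genes 20.5% were called in either direction and 12.0% were called higher. The list was not tested as a set, so the count is not read as a result about the pathway. The 4 called genes were CCN2 at 1.04 (SE 0.25, adjusted p = 0.0297), YAP1, the co-activator itself, at 0.41 (SE 0.07, adjusted p = 0.0161), LATS1, the paralogue of LATS2, at 0.39 (SE 0.08, adjusted p = 0.0211) and STK4, an upstream kinase, at 0.31 (SE 0.08, adjusted p = 0.0336). LATS2 was at -0.09 (SE 0.11) in that fit. Of the 19 p53 targets 0 were called between genotypes, with a median of -0.10 in homozygous and 0.0017 in hemizygous against wild-type cells. GDF15 had -1.19 (SE 0.59, unadjusted p = 0.0845) in homozygous against wild-type cells. FAS was higher in replicate 1 by 0.88 (SE 0.21, adjusted p = 0.0308), the only 1 of 19 p53 targets called by replicate number, where 20.5% of all genes were called. Further genes that ranked first or second by p in their lists between genotypes, among them BTG2, AEN, MOB1B and CDC25A, had log2 fold changes of -0.45 to 0.37.

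**Figure D4:**
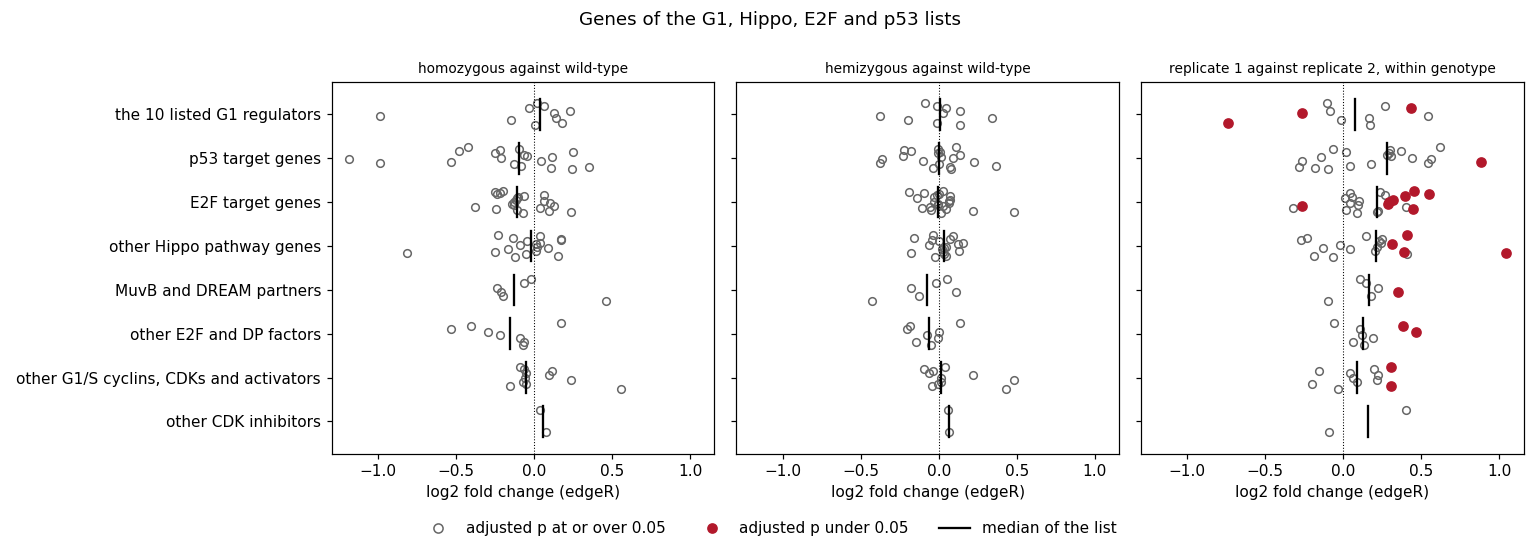
Each point is the edgeR log2 fold change of 1 gene of a list, in homozygous against wild-type cells, hemizygous against wild-type cells and replicate 1 against replicate 2 within genotype; filled red points passed an adjusted p of 0.05 and black lines are list medians. Red points appear only in the replicate panel, from -0.74 for CCND2 to 1.04 for CCN2.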

How the data were processed

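Ago2 iCLIP was run on 6 libraries of H1 cells. The authors deposited 1 table of read counts per gene, whole numbers without normalization, with hg38 as the build per the submitters' processing notes. The sources used here do not give the aligner, counter, annotation, use of strand or use of molecular identifiers. Each column was matched to a library through the description in its label. The members and lists were chosen with earlier results of these data known.

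The fit in edgeR 4.0.16 (R 4.3.3) used TMM scaling and a mean per genotype over all 6 libraries, followed by the quasi-likelihood test; filterByExpr removed none of the 16199 rows. Calls needed an adjusted p (Benjamini-Hochberg over all genes) under 0.05. Each standard error was derived from a fold change and its F statistic, and 95% intervals from the t distribution with the fit's degrees of freedom. SDs are over 2 libraries. Replicate number was tested with genotype as covariate. As alternatives, scaling by RLE, upper quartile or library size was used, and no filter, 20 counts in 2 libraries, DESeq2 1.42.0, limma-voom (limma 3.58.1), only the groups compared, a replicate block and each library left out. Libraries of the same number deviated together: across genes, the differences between replicates correlated at 0.48 between homozygous and hemizygous, 0.36 between homozygous and wild-type and 0.74 between hemizygous and wild-type cells. The numbers were therefore taken to pair the libraries in the replicate block and in the differences between libraries of the same number. The main fit and its intervals leave this pairing out. Named genes were the 10 members, DICER1 and AGO2, up to 2 genes with the smallest p per pathway list and comparison, called genes of those lists, and the 3 genes most like each of the 3 members of widest range. Other examples fell outside these rules and were picked with their values in view. They were the named cell type markers (FBN1 and ZIC1 among them), BBC3, FDXR and the overlapping genes. Scripts were tested on simulated data.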

Additional observations from a re-analysis of the deposited data

How the results depend on the processing

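With a replicate block, edgeR called 0 of the 10 genes in each comparison of genotypes, as without it, and 1 gene of all in hemizygous against wild-type, 0 in homozygous against wild-type and 1 in homozygous against hemizygous cells. DESeq2 called 7, 10 and 10 genes of all in these comparisons, where edgeR called 0, and none of the 10. With a library left out the count over all genes ran from 0 to 2, from 0 to 1 and from 0 to 3, and that of the 10 genes stayed at 0. For replicate number, leaving out libraries (added after seeing the data) moved the count over all genes between 1 and 6266, from 3322, and that of the 10 genes between 0 and 6. DESeq2 gave E2F1 an adjusted p of 0.0556 there. No scaling moved the median of all genes by over 0.1 on the log2 scale. Signs turned mostly for values near 0. In hemizygous against wild-type cells CCND2 had 0.0317 by limma-voom and 0.0256 with the replicate block. In homozygous against wild-type cells CCND1 had -0.0031 by limma-voom and -0.0060 with the block. With a library left out, log2 fold changes in homozygous against wild-type cells ran from -0.0539 to 0.21 for RBL1, -0.0853 to 0.11 for RBL2, -0.24 to 0.18 for RB1, -0.0191 to 0.31 for E2F1, -0.17 to 0.16 for CCND1, -0.24 to 0.79 for CCND2 and -0.0049 to 0.33 for CDK6. In hemizygous against wild-type cells they ran from -0.88 to 0.44 for CDKN1A, -0.19 to 0.16 for RBL1, -0.22 to 0.28 for RB1, -0.12 to 0.21 for E2F1 and -0.43 to 0.60 for CCND2. In homozygous against hemizygous cells they ran from -0.10 to 0.26 for RBL1, -0.31 to 0.20 for RB1, -0.0352 to 0.20 for LATS2, -0.0291 to 0.24 for E2F1, -0.31 to 0.0243 for CCND1, -0.12 to 0.59 for CCND2 and -0.0282 to 0.12 for CDK2. For replicate number they ran from -0.25 to 0.0031 for LATS2 and -0.12 to 0.0526 for CDK2. The cause was not tested. With the block the SE in hemizygous against wild-type cells was 0.13 for CCND2, against 0.38 without it, and 0.0949 for RB1, against 0.24.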

Other observations

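RB1 and E2F1, a brake and the factor it holds, moved in opposite directions with replicate number. The ratio of RB1 to E2F1 counts within a library was 0.84 and 0.55 in homozygous, 1.00 and 0.59 in hemizygous and 0.97 and 0.59 in wild-type libraries. It was higher in replicate 1 in 3 of 3 genotypes, and the replicate 2 libraries lay within 0.55 to 0.59. That order follows from the opposite steps of RB1 and E2F1 given above, so the ratio is no separate result. The ratio compares counts, which also follow transcript length and binding by Ago2. The ratio of RB1 to RBL2 counts was 0.53 and 0.35 in homozygous, 0.62 and 0.39 in hemizygous and 0.51 and 0.40 in wild-type libraries. LPAR6, which lies within the annotated span of RB1, followed another course, at 5.42 and 6.70 CPM in homozygous, 10.8 and 5.98 CPM in hemizygous and 12.1 and 5.12 CPM in wild-type libraries. Like CDKN1A it was lower in replicate 1 than in replicate 2 in homozygous cells and higher in replicate 1 in the other genotypes.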
